A study of Homo sapiens with 15 samples.

Results

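The genes described here are the human collagen genes, taken as every gene in the deposited count table whose symbol is COL, a number, A and a number. The rule found 44 genes among 26485 gene symbols. Of these, 19 had a mean of at least 1 CPM (a gene's count scaled to the library total, such that all genes of a library sum to 1e6) in at least 1 of 5 groups, and 25 stayed below that level in every group. The study measured mRNA in 2 human leukemia lines that its labels give as acute myeloid leukemia of the blood: ML1, a myeloblastic line, and U937, a monocytic line. Each of the 5 groups had 3 RNA-seq libraries, 15 in all. ML1 cells received diluent or 10 nM prexasertib, an inhibitor of the checkpoint kinase CHK1. U937 cells received diluent, 10 nM prexasertib, or 10 nM prexasertib together with 350 nM LSN622666, a compound known here by its code name. Every treatment lasted 24 hours, and all groups, the diluent controls included, also had 5 μM Q-VD-OPh, a pan-caspase inhibitor that blocks apoptotic proteolysis. LSN622666 was never given on its own, nor to ML1. The labels do not say that the 3 libraries of a group came from separate cultures, so the p-values measure the spread between these libraries, which may be technical. The series asked which transcription factor genes that could act on TNF changed with treatment, and the collagen genes were read from the same table.

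Collagens are matrix proteins built from 3 chains wound into a triple helix. Fibrillar collagens form the fibrils of skin, bone and cartilage, type IV collagens form the sheet-like network of basement membranes, type VI forms beaded filaments and type VII forms the anchoring fibrils under epithelia. FACIT collagens (fibril-associated collagens with interrupted triple helices, such as type IX) sit on the surface of fibrils, multiplexins (types XV and XVIII) lie in basement membrane zones, and a small group spans the cell membrane. Some, such as types I, IV, V, VI, IX and XI, join different chains, while others, such as types VII and X, hold copies of a single chain. Their main producers are fibroblasts, chondrocytes, osteoblasts and epithelial or endothelial cells rather than cells of the blood.

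Promoter sequences are shown for COL4A1 and COL4A2, which start back to back and whose mRNA ratio differed between the lines, and for COL7A1 and COL5A3, 2 of the genes that rose in both lines with prexasertib. They are RefSeq sequences of GRCh38.p14, read 5′ to 3′ on the strand given. Capitals mark matches on either strand to 4 short motifs: the AP-1 site (TGANTCA), the GC box (GGGCGG), the CCAAT box, and the TATA box in the form TATAAA.
COL4A1 and COL4A2, the bases between the RefSeq starts, chr13:110307158-110307283, plus strand: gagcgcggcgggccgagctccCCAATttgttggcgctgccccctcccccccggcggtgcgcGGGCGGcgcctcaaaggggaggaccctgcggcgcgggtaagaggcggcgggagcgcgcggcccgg
COL7A1, chr3:48595330-48595579, minus strand: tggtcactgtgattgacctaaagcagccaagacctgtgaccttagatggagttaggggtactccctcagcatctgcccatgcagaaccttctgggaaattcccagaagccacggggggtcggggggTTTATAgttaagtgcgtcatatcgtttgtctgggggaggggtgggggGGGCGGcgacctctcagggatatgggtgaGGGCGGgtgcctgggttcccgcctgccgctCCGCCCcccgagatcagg
COL5A3, chr19:10010505-10010754, minus strand: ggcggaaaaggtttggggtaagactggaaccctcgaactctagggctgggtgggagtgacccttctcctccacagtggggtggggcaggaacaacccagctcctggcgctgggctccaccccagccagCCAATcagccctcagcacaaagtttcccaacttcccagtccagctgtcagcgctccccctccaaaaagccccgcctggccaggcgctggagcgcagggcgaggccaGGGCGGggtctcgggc

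The 126 bases between the COL4A1 and COL4A2 starts held 1 GC box and 1 CCAAT. The 250 bases before the COL7A1 start held 3 GC boxes and 1 TATAAA, and those before the COL5A3 start held 1 GC box and 1 CCAAT. RefSeq windows were matched by symbol for 32 of the 44 collagen genes, which have 44 windows between them. GC boxes lay in 54.5% of the collagen windows and in 42.6% of all 35116 windows of 250 bases before a start. CCAAT lay in 27.3% against 32.0%, TATAAA in 18.2% against 10.7%, and the AP-1 letters in 1 collagen window, that of COL10A1, or 2.3% against 6.6%. These are letter matches that describe the windows.

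Library totals ran from 49011222 to 87301014 counts, so 1 count was worth between 0.0115 and 0.0204 CPM. The labelled cell type was checked with 16 myeloid marker genes, of which 15 or 16 had a mean of at least 1 CPM in every group. The levels of these markers differed between groups in both directions. With prexasertib in ML1, LYZ went from a mean of 507 to 3481 CPM and MPO from 934 to 486 CPM. In U937 diluent MPO was at 2.40 CPM. The 10 fibroblast and stroma markers summed to between 3.14 and 15.4 CPM in U937 libraries, with overlapping ranges between groups, and to 7.82 to 10.3 CPM in ML1 diluent against 32.6 to 50.9 CPM in ML1 prexasertib. ACTA2, smooth muscle actin, made most of that rise, at a mean of 5.00 CPM against 37.2 CPM. The fibroblast proteoglycan genes DCN and LUM had no count in any ML1 library and at most 0.032 CPM as a group mean in U937, and the epithelial EPCAM and endothelial EMCN had none in any library. Other stroma markers were present. In ML1 diluent and prexasertib, PDGFRB had means of 0.198 and 1.13 CPM, TAGLN 2.29 and 4.62 CPM and FBLN1 1.24 and 1.33 CPM. In U937 diluent, prexasertib and combination, PDGFRB had 0.681, 1.16 and 1.74 CPM and TAGLN 1.44, 2.35 and 2.93 CPM. Of 6 epithelial markers, 3 had no count in any U937 diluent library and 2 in any U937 prexasertib library, and the sum went from 0.366 to 0.747 CPM in diluent to 2.63 to 4.26 CPM with prexasertib and 0.999 to 1.49 CPM with the combination, led by CLDN4 at means of 0.328, 2.92 and 0.862 CPM. In ML1 that sum was 4.35 to 5.40 CPM in diluent and 6.35 to 9.47 CPM with prexasertib, led by the keratins KRT18 and KRT8. Of 6 endothelial markers, 3 had no count in U937 diluent and 1 in U937 prexasertib, and the sum went from 0.581 to 0.690 CPM to 1.19 to 3.19 CPM with prexasertib and 1.81 to 2.94 CPM with the combination (in ML1, 1.31 to 1.71 CPM in diluent and 0.317 to 0.945 CPM with prexasertib). In these U937 groups, TEK had means of 0.0327, 0.684 and 0.153 CPM and CLDN5 0.591, 0.810 and 2.05 CPM. CLDN5 went from 1.51 to 0.511 CPM in ML1 with prexasertib. Of 6 chondrocyte and osteoblast markers, 2 had no count in U937 diluent and 1 in U937 prexasertib, and the sums overlapped, at 0.266 to 1.03 and 0.653 to 1.16 CPM, while in ML1 they were 0.688 to 1.00 CPM in diluent and 1.25 to 1.75 CPM with prexasertib. The part of other cell types in the collagen results was not tested. Libraries of the U937 prexasertib group had counts for 19742 to 21023 genes, against 17782 to 18435 in U937 diluent. U937 prexasertib replicate 2 had the most, and it was the highest of its group for 14 of the 15 collagen genes that rose in U937. Its part in these results was not tested, and the values without it stand beside those results. In bulk RNA, fewer expressing cells and less RNA per cell cannot be told apart.

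In CPM, the largest difference between the untreated lines was in a transmembrane collagen. COL23A1, type XXIII collagen, had the highest level of all 44 genes at 139.5, 132 and 141.8 CPM in the ML1 diluent libraries. In the U937 diluent libraries it had 0.874, 0.997 and 0.877 CPM, so the lines were far apart and their libraries did not overlap. The log2 difference, U937 minus ML1, was -7.18 ± 0.15 (SE, n = 3 libraries per group), with an adjusted p of 6.6e-16. Adjusted p-values throughout come from the quasi-likelihood test of edgeR, adjusted by the Benjamini-Hochberg method over all 17243 genes tested, and a gene is said to rise or fall where that value was under 0.05. COL23A1 supplied 42.1% of all collagen counts in ML1 diluent. The summed collagen level was 327 ± 10.1 CPM (SD, n = 3) in ML1 diluent and 148 ± 16.7 CPM in U937 diluent, and without COL23A1 the ML1 libraries had 181.6 to 198.9 CPM against 130.3 to 163.7 CPM in U937.

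**Figure D1:**
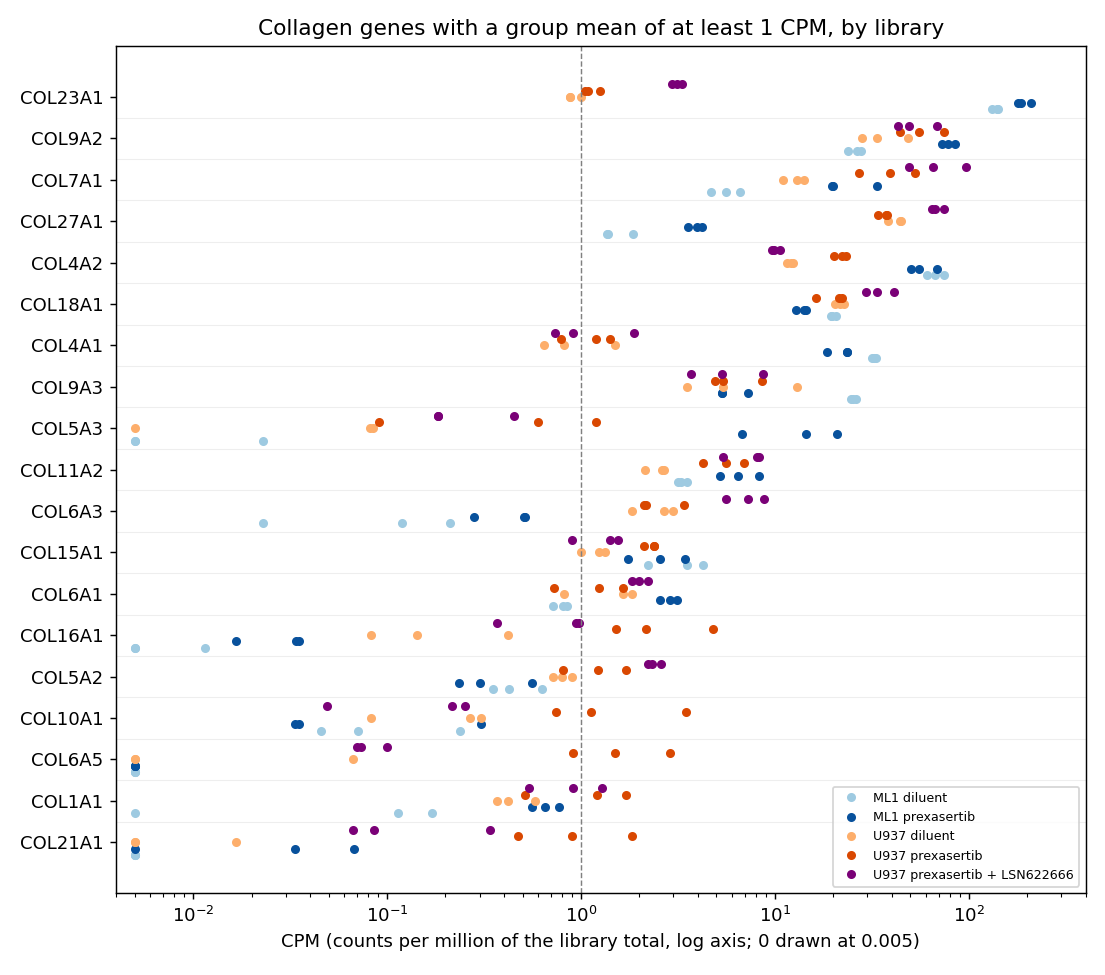
CPM (log axis) of each of the 19 collagen genes with a group mean of at least 1 CPM, 1 point per library and 1 colour per group, with 0 drawn at the left edge and the dashed line at 1 CPM. COL23A1 lies above 130 CPM in every ML1 library and below 4 CPM in every U937 library, while COL6A5 and COL21A1 lie below the dashed line in every library outside the U937 prexasertib group.

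Between the untreated lines, 12 of the 36 collagen genes that passed the low-count filter were higher in U937 and 8 were lower, against 32% and 29.4% of all tested genes. Their median log2 difference was 0.86 (0.83 with the 6 genes at 0 in a group set at their bound), against 0.01 over all genes. The filter keeps a gene that has enough counts in the libraries of a single group, so a collagen gene may have passed through the group where it is high, and such counts are descriptions. Levels were also corrected for exon length, that of all annotated exons of a gene merged, and the order rests on that choice. Among these levels, the order in ML1 diluent was COL23A1 at 44.7 CPM per kb, then COL9A3 at 10.2, COL9A2 at 9.09, COL4A2 at 5.21, COL4A1 at 4.33 and COL18A1 at 2.93. COL9A3 and COL9A2 were next to each other in this order, with a ratio in single libraries of 1.05 to 1.25, and COL4A2 and COL4A1 had a ratio of 1.06 to 1.33. In U937 diluent the order was COL9A2 at 12.9 CPM per kb, COL27A1 at 5.44, COL18A1 at 3.17, COL9A3 at 2.93, COL7A1 at 1.37 and COL4A2 at 0.927. COL18A1 and COL9A3 were not separated there, since the COL9A3 libraries spread from 3.52 to 13.0 CPM.

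COL4A1, the α1 chain of type IV collagen, had 32.6, 31.8 and 33.3 CPM in ML1 diluent and 1.49, 0.648 and 0.816 CPM in U937 diluent, a log2 difference of -4.98 ± 0.32 (adjusted p = 2.4e-10). COL4A2, the α2 chain, had 74.8, 67.2 and 60.9 CPM against 12.4, 11.6 and 12.1 CPM, a difference of -2.44 ± 0.13 (adjusted p = 1.7e-11). Both chains were thus lower in U937, with no overlap between libraries. The multiplexin COL15A1 was lower by a smaller step, from a mean of 3.33 to 1.19 CPM (log2 -1.44 ± 0.31, adjusted p = 0.00055), and COL9A3, the α3 chain of type IX, from 25.4 to 7.31 CPM (-1.76 ± 0.36, adjusted p = 0.00036). The kidney basement membrane chain COL4A4 was lower, at a mean of 0.0793 against 0.331 CPM (-1.96 ± 0.61, adjusted p = 0.01), though not when U937 diluent replicate 3 was left out (adjusted p = 0.052). COL24A1, a minor fibrillar collagen, had 142 counts over the ML1 diluent libraries and none over those of U937, so it was at least 42.1-fold lower in U937 (adjusted p = 8.5e-06), and the FACIT COL12A1, with 32 counts against none, was at least 9.48-fold lower (adjusted p = 0.00082).

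U937 had more of the cartilage fibrillar collagen COL27A1, at 38.2, 44.7 and 44.2 CPM against 1.85, 1.39 and 1.36 CPM in ML1, a log2 difference of 4.84 ± 0.15 (adjusted p = 2.7e-14). COL6A3, the long α3 chain of type VI filaments, had 2.69, 1.84 and 2.98 CPM against 0.119, 0.0229 and 0.212 CPM (4.55 ± 0.46, adjusted p = 1.1e-07). COL7A1, the anchoring fibril collagen, had 12.8 against 5.62 CPM (1.23 ± 0.24, adjusted p = 0.0003), and COL1A1, the α1 chain of type I, 0.457 against 0.0949 CPM (2.27 ± 0.64, adjusted p = 0.0049). The type VI α1 chain gene COL6A1 had 1.43 against 0.791 CPM (0.89 ± 0.32, adjusted p = 0.023), and COL9A2, the type IX α2 chain, 36.9 against 26.0 CPM (0.54 ± 0.19, adjusted p = 0.021). The COL6A1 call ended without ML1 diluent replicate 1 or 3 or U937 diluent replicate 1 or 3 (adjusted p from 0.052 to 0.11), and that of COL9A2 without ML1 diluent replicate 1 or U937 diluent replicate 1 (0.078 and 0.18). The remaining 6 were genes with few or no counts in ML1 diluent. COL13A1, COL22A1 and COL26A1 had none there and 44, 50 and 53 counts in U937, and were at least 16.5-fold, 18.8-fold and 19.9-fold higher (adjusted p = 0.00019, 4.9e-05 and 0.00053). COL14A1 had 0.669 against 0.0194 CPM and COL28A1 0.331 against 0.0153 CPM (adjusted p = 1.9e-06 and 0.0002), while COL16A1 had 42 counts against 1, a ratio of 47.3 (95% counting interval 8.03 to 1911, adjusted p = 0.00038). Counting intervals here are exact and cover counting error only. A fold given as "at least" sets the group with no count at 3 counts. It takes the other group's count as measured, so counting error in that count is not covered.

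In ML1, prexasertib raised 13 of the 36 tested collagen genes and lowered 2, against 25.3% higher and 23.5% lower over all tested genes. The median log2 change was 0.92 (0.75 with 4 genes at 0 set at their bound), against 0.02 over all genes. The summed collagen level was 431 ± 7.94 CPM (SD, n = 3), above every diluent library, with COL23A1 making 44.6% of it. COL23A1 itself went from 139.5, 132 and 141.8 CPM to 185.2, 210.1 and 180.3 CPM, a log2 change of 0.52 ± 0.11 (SE, adjusted p = 0.00063), and the groups did not overlap.

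The gene with the largest fitted rise in ML1 was COL5A3, the α3 chain of type V collagen, a regulator of fibril diameter. Its ML1 diluent libraries had 0, 0.0229 and 0 CPM and its prexasertib libraries 14.4, 6.78 and 20.9 CPM. That is 2446 counts against 2, or 1410 times as many after scaling (95% counting interval 390 to 11650, adjusted p = 3.3e-07). COL5A3 was nearly absent from untreated ML1 and had the seventh highest level per kb of exon after prexasertib, at 2.27 CPM per kb. Since its libraries spread from 6.78 to 20.9 CPM, it was not separated in this order from COL7A1 at 2.64, COL9A3 at 2.38 and COL18A1 at 2.02 CPM per kb. Exons of the gene share 4.4% of their bases with AC008742.1, an annotated gene on the opposite strand that is not in the count table, and the library kit does not mark strand. Among the other fibrillar genes, COL27A1 rose from 1.85, 1.39 and 1.36 CPM to 4.22, 3.56 and 3.95 CPM (log2 1.39 ± 0.15, adjusted p = 4.3e-07) and COL11A2, a type XI chain of cartilage fibrils, from 3.54, 3.16 and 3.28 CPM to 8.32, 6.44 and 5.18 CPM (1.03 ± 0.22, adjusted p = 0.00072). All 3 prexasertib libraries were above all 3 diluent libraries for each of them. COL1A1 rose from 0.0949 to 0.659 CPM (2.78 ± 0.63, adjusted p = 0.0014) and COL5A1, the main type V chain, from 0.061 to 0.359 CPM (2.58 ± 0.75, adjusted p = 0.0085).

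COL7A1 rose in ML1 from 6.62, 5.57 and 4.69 CPM to 33.7, 19.7 and 20.1 CPM, a log2 change of 2.15 ± 0.25 (adjusted p = 1.4e-06). The 3 genes of the classical type VI trimer rose too. COL6A1 went from 0.714, 0.848 and 0.811 CPM to 3.12, 2.55 and 2.87 CPM (1.88 ± 0.32, adjusted p = 0.0001), and COL6A3 from a mean of 0.118 to 0.435 CPM (2.03 ± 0.49, adjusted p = 0.0023). COL6A2, the α2 chain, had no count in diluent and 45 with prexasertib, at least 17.3-fold higher (adjusted p = 0.00092). COL6A1 was the only one of these 3 chains to reach 1 CPM in ML1. The FACIT gene COL20A1 rose from 0.042 to 0.781 CPM (4.13 ± 0.73, adjusted p = 0.00015). COL26A1, an EMI-domain collagen, had no count against 13, at least 4.997-fold higher (adjusted p = 0.021), and was not called without ML1 diluent replicate 2 (adjusted p = 0.059) or prexasertib replicate 2 (0.054).

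The chains of type IX collagen went apart in ML1. COL9A2 rose from 23.9, 26.5 and 27.7 CPM to 72.8, 77.8 and 85.1 CPM, a log2 change of 1.63 ± 0.20 (adjusted p = 2.2e-06). COL9A3 fell from 26.1, 24.7 and 25.3 CPM to 7.24, 5.31 and 5.31 CPM, a change of -2.06 ± 0.36 (adjusted p = 0.00014). Neither gene had overlapping groups. COL9A3 shares 1.8% of its exon bases with TCFL5 on the opposite strand, and TCFL5 also fell, from 59.1 to 23.6 CPM (-1.29 ± 0.10, adjusted p = 1.3e-08). The multiplexin COL18A1, the source of the endostatin fragment, fell from 20.7, 19.7 and 19.5 CPM to 12.9, 14.1 and 14.4 CPM (-0.50 ± 0.14, adjusted p = 0.0071). COL18A1 shares 20.5% of its exon bases with the folate carrier gene SLC19A1 on the opposite strand, which fell from 98.7 to 26.6 CPM (-1.85 ± 0.20, adjusted p = 6.3e-07), and the part of those shared reads in the COL18A1 value was not tested. The type IV chains passed no test, COL4A1 at -0.53 ± 0.26 (adjusted p = 0.1; 0.0072 in a fit to the ML1 libraries alone) and COL4A2 at -0.18 ± 0.12 (adjusted p = 0.24). COL15A1 had -0.34 ± 0.29 (adjusted p = 0.37).

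In U937, prexasertib raised 15 of the 36 tested collagen genes and lowered 1, against 18.3% higher and 12.8% lower over all tested genes. The median log2 change was 0.76, also with the 3 genes at 0 set at their bound, against -0.0012 over all genes. Of the tested genes with a mean under 1 CPM over the 15 libraries, 23.2% rose in this comparison, and of the 22 collagen genes in that range 10 rose. Here too a gene may have passed the filter through the prexasertib group where it is high, so these counts are descriptions. Without U937 prexasertib replicate 2, 11 of the collagen genes rose. In a fit to the U937 diluent and prexasertib libraries alone, 31 collagen genes were tested and 10 rose. The summed collagen level was 214 ± 23.5 CPM (SD, n = 3) against 148 ± 16.7 CPM, and 18 collagen genes had a mean of at least 1 CPM against 10 in diluent. Every collagen gene had a count in prexasertib replicate 2, and 39 and 41 of the 44 had one in replicates 1 and 3, against 31 to 34 in the diluent libraries.

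By class, 4 fibrillar, 3 network, 3 beaded filament or anchoring and 5 FACIT genes rose. The largest gains in CPM were in 3 genes that were already expressed. COL7A1 went from 14.1, 11.1 and 13.1 CPM to 39.4, 52.5 and 27.1 CPM, a log2 change of 1.49 ± 0.24 (adjusted p = 0.0003). COL4A2 went from 12.4, 11.6 and 12.1 CPM to 22.1, 23.3 and 20.2 CPM (0.72 ± 0.12, adjusted p = 0.00053). Both had groups that did not overlap, and without prexasertib replicate 2 the changes were 1.23 and 0.66 (adjusted p = 0.0024 and 0.0034). COL9A2 went from 48.9, 28.2 and 33.6 CPM to 74.6, 44.4 and 55.7 CPM (0.52 ± 0.19, adjusted p = 0.047), with overlapping libraries. The COL9A2 call ended without U937 diluent replicate 2 or 3 or prexasertib replicate 1 or 3 (adjusted p from 0.073 to 0.28). It also ended under DESeq2 size factors in edgeR (0.054), no low-count filter (0.051) and the fit to the groups compared (0.098). COL11A2 rose from 2.61, 2.14 and 2.69 CPM to 5.59, 6.97 and 4.25 CPM (1.03 ± 0.22, adjusted p = 0.0026), and by 0.83 without prexasertib replicate 2 (adjusted p = 0.02). COL27A1, the only collagen gene called lower, went from 38.2, 44.7 and 44.2 CPM to 37.6, 33.9 and 38.0 CPM (-0.36 ± 0.13, adjusted p = 0.038), and that call ended without U937 diluent replicate 2 or 3 or prexasertib replicate 1 or 2 (adjusted p from 0.053 to 0.12).

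The other 11 genes that rose in U937 had group means under 0.3 CPM in diluent. COL16A1, a FACIT collagen, went from 0.423, 0.0831 and 0.143 CPM to 2.17, 4.82 and 1.52 CPM (log2 3.51 ± 0.56, adjusted p = 0.00028). COL10A1, the network collagen of hypertrophic cartilage, went from 0.268, 0.0831 and 0.306 CPM to 1.12, 3.47 and 0.744 CPM (2.87 ± 0.78, adjusted p = 0.011). COL6A5, a type VI chain related to α3, went from 0, 0.0664 and 0 CPM to 1.504, 2.89 and 0.911 CPM (6.03 ± 0.85, adjusted p = 0.00025). In each of these 3 genes every prexasertib library was above every diluent library and replicate 2 was the highest. Without replicate 2 the log2 change was 2.89 for COL16A1 and 5.48 for COL6A5 (adjusted p = 0.0022 and 0.0014). COL6A5 had no count in any ML1 library of either group.

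COL1A2, the α2 chain of type I collagen, had no count in U937 diluent and 0.348, 1.53 and 0.577 CPM with prexasertib, 153 counts in all and at least 48.4-fold higher (adjusted p = 0.003). COL12A1 had none against 88 counts, at least 27.8-fold higher (adjusted p = 0.00041), and COL24A1 none against 29, at least 9.17-fold higher (adjusted p = 0.0029). COL21A1, a FACIT collagen, had 1 count against 200, a ratio of 189.8 (95% counting interval 33.7 to 7533, adjusted p = 0.00043). COL6A2 had 2 against 47, a ratio of 22.3 (5.84 to 189.5, adjusted p = 0.013). These 5 genes were thus at or near 0 before treatment and stayed at or below 1.82 CPM in each treated library. COL5A3 went from a mean of 0.0554 to 0.631 CPM (log2 3.30 ± 0.89, adjusted p = 0.011), COL20A1 from 0.0213 to 0.316 CPM (3.56 ± 0.85, adjusted p = 0.0052) and COL4A4 from 0.0793 to 0.331 CPM (1.84 ± 0.62, adjusted p = 0.032). Without U937 prexasertib replicate 2, COL1A2, COL12A1, COL24A1, COL21A1 and COL20A1 were still called (adjusted p = 0.015, 0.0019, 0.012, 0.0022 and 0.03), and the calls of COL10A1, COL5A3, COL6A2 and COL4A4 ended (adjusted p = 0.11, 0.075, 0.062 and 0.21). The COL6A2 call also ended without diluent replicate 1 or 3 (0.053 and 0.051), and that of COL4A4 without diluent replicate 1 or 3 (0.083 and 0.13). The fit to the groups compared did not call COL4A4 either (0.073).

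Other collagen genes were not called for prexasertib alone in U937. COL18A1 had 21.7, 20.5 and 22.7 CPM in diluent and 22.3, 16.4 and 21.3 CPM with prexasertib (log2 -0.25 ± 0.14, adjusted p = 0.18). COL23A1 had 0.916 against 1.13 CPM (0.16 ± 0.15, adjusted p = 0.44), COL4A1 0.986 against 1.13 CPM (0.04 ± 0.31, adjusted p = 0.94), COL6A3 2.5 against 2.56 CPM (-0.11 ± 0.34, adjusted p = 0.83) and COL9A3 7.31 against 6.31 CPM (-0.35 ± 0.35, adjusted p = 0.47). Libraries overlapped in each of these but COL23A1, at 0.874 to 0.997 against 1.05 to 1.25 CPM. COL15A1, at 1.34, 0.997 and 1.25 against 2.39, 2.37 and 2.12 CPM, had groups that did not overlap and lay near the threshold (0.80 ± 0.31, adjusted p = 0.055). It was called under upper-quartile factors (adjusted p = 0.0499), the replicate block (0.044), the fit to the groups compared (0.046) and DESeq2 (0.041). COL1A1 had 0.457 against 1.15 CPM (1.16 ± 0.54, adjusted p = 0.11), and was called without prexasertib replicate 3 (adjusted p = 0.042).

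**Figure D2:**
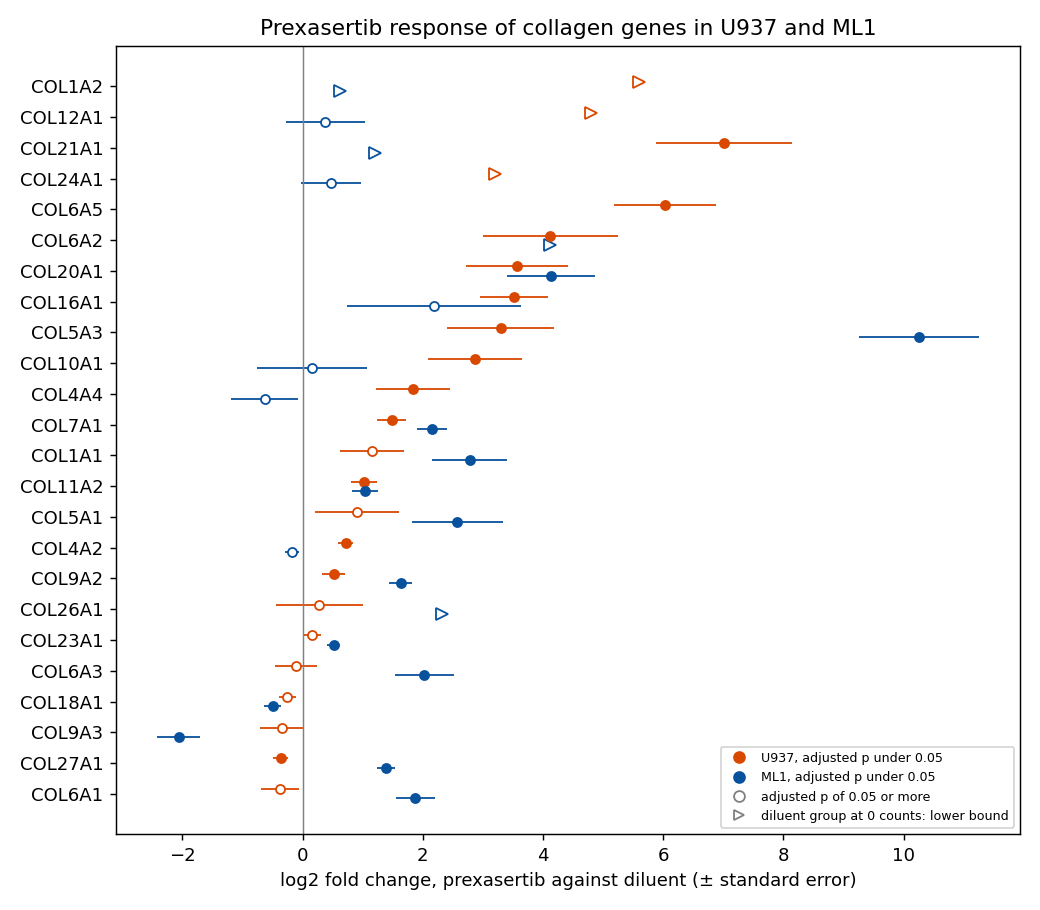
Log2 fold change with prexasertib against diluent (± SE, 3 libraries per group) for the collagen genes called in either line, U937 in orange and ML1 in blue. Filled points have an adjusted p under 0.05. Triangles are lower bounds that set a diluent group with no count at 3 counts. COL7A1 and COL11A2 lie right of 0 in both lines, COL9A3 lies left in ML1, and the points of COL5A3 and COL16A1 in ML1 and of COL21A1 and COL6A2 in U937 are fitted values whose diluent groups held 1 or 2 counts.

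The prexasertib response was compared between the lines directly, as the U937 change minus the ML1 change. Of the 36 tested collagen genes, 5 had a higher and 5 a lower difference, against 12.4% and 12.3% of all tested genes. The median was 0.0048, against 0.03 over all genes. The 6 genes that rose in both lines were COL11A2, COL20A1, COL5A3, COL6A2, COL7A1 and COL9A2, 40.0% of those that rose in U937 and 46.2% of those that rose in ML1. Over all tested genes, 1701 rose in both, 53.8% of those that rose in U937 and 38.9% of those that rose in ML1. COL11A2 had nearly the same change in each line (difference -0.01 ± 0.31, adjusted p = 1), and COL7A1 had a difference of -0.67 ± 0.34 (adjusted p = 0.17), which was called without U937 prexasertib replicate 2 (adjusted p = 0.048). The difference was called for COL9A2 (-1.11 ± 0.27, adjusted p = 0.0056), whose rise was larger in ML1.

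COL27A1 rose in ML1 and fell in U937, where the call was lost under 8 of 13 alternatives. The difference between those changes was -1.75 ± 0.19 (adjusted p = 3.2e-06). The difference was positive for COL4A2 at 0.89 ± 0.17 (adjusted p = 0.00091), for COL9A3 at 1.71 ± 0.50 (adjusted p = 0.018) and for COL4A4 at 2.47 ± 0.83 (adjusted p = 0.038). COL6A1 (-2.26 ± 0.45, adjusted p = 0.0011) and COL6A3 (-2.14 ± 0.60, adjusted p = 0.014) had a lower change in U937, where neither passed its own test. COL5A3 also had a lower change in U937 (adjusted p = 0.011), while COL12A1 and COL24A1, with no count in U937 diluent, had a higher one (adjusted p = 0.0021 and 0.0096). The COL9A3 difference was no longer called without U937 diluent replicate 3 (adjusted p = 0.056) or prexasertib replicate 1 (0.058), nor was that of COL5A3 without U937 diluent replicate 1 (0.098). That of COL4A4 ended without any of ML1 diluent replicates 1 and 2, ML1 prexasertib replicates 1, 2 and 3, U937 diluent replicates 1 and 3 and U937 prexasertib replicate 2 (adjusted p from 0.051 to 0.12). Without U937 diluent replicate 3 the higher differences numbered 3.

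Adding LSN622666 to prexasertib in U937 moved the collagen genes in both directions. Against prexasertib alone, 6 of 36 tested genes rose and 9 fell, beside 11.9% higher and 17.1% lower over all tested genes. The median log2 change was -0.03, also with COL24A1 set at its bound, against 0.0074 over all genes. The summed collagen level was 276 ± 56.2 CPM (SD, n = 3), with libraries from 229.4 to 338.5 CPM against 189.1 to 235.7 CPM with prexasertib alone. The numbers of these libraries pair them, and within each number the sum was higher with the combination, at 338.5 against 235.7, 260.8 against 217.4 and 229.4 against 189.1 CPM. This comparison and the one with diluent share their libraries with the prexasertib comparison above, so each is given by its own values.

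The 6 that rose were genes with at least 0.8 CPM in every U937 prexasertib library. COL27A1 went from 37.6, 33.9 and 38.0 CPM to 74.5, 66.7 and 64.5 CPM, a log2 change of 0.91 ± 0.13 (adjusted p = 8.7e-05). COL18A1 went from 22.3, 16.4 and 21.3 CPM to 41.1, 33.8 and 29.4 CPM (0.80 ± 0.14, adjusted p = 0.00057). COL23A1 went from 1.09, 1.25 and 1.05 CPM to 2.95, 3.34 and 3.13 CPM (1.49 ± 0.13, adjusted p = 3.2e-06). In these 3 genes the combination libraries were all above the prexasertib libraries. COL6A3 rose from 3.40, 2.17 and 2.11 CPM to 8.78, 5.62 and 7.28 CPM (1.5 ± 0.34, adjusted p = 0.0038), and COL5A2, a type V chain, from 1.22, 1.71 and 0.804 CPM to 2.32, 2.58 and 2.21 CPM (0.95 ± 0.33, adjusted p = 0.038). COL7A1 went from 39.4, 52.5 and 27.1 CPM to 96.5, 65.1 and 48.96 CPM (0.83 ± 0.23, adjusted p = 0.014), with 1 combination library below the highest prexasertib library. COL7A1 was no longer called without prexasertib replicate 3 (adjusted p = 0.057) or combination replicate 1 (0.085), and COL5A2 without prexasertib replicate 1 or 3 or any combination replicate (0.059 to 0.13).

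Of the 9 genes that fell, COL4A2 had the most counts, at 22.1, 23.3 and 20.2 CPM with prexasertib and 10.6, 9.90 and 9.70 CPM with the combination, a log2 change of -1.11 ± 0.12 (adjusted p = 1.8e-05). The other 8 had means under 3 CPM in every U937 group. COL16A1 fell from 2.17, 4.82 and 1.52 CPM to 0.946, 0.971 and 0.367 CPM (-1.89 ± 0.51, adjusted p = 0.01), COL10A1 from 1.12, 3.47 and 0.744 CPM to 0.216, 0.253 and 0.0489 CPM (-3.35 ± 0.79, adjusted p = 0.0046) and COL6A5 from 1.504, 2.89 and 0.911 CPM to 0.0996, 0.0704 and 0.0734 CPM (-4.40 ± 0.71, adjusted p = 0.00064). None of these groups overlapped. COL24A1 had 29 counts against none, at least 10.9-fold lower (adjusted p = 0.0017), and COL6A2 had 47 against 2, a ratio of 26.4 (95% counting interval 6.91 to 224.1, adjusted p = 0.0074). COL21A1 fell from a mean of 1.06 to 0.163 CPM (-2.66 ± 0.73, adjusted p = 0.013), COL1A2 from 0.818 to 0.0563 CPM (-3.78 ± 1.03, adjusted p = 0.015) and COL12A1 from 0.470 to 0.0935 CPM (-2.27 ± 0.67, adjusted p = 0.019).

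COL10A1, COL6A5, COL24A1 and COL6A2 kept the call under every alternative run that tested them, and the other 4 low genes did not. Without prexasertib replicate 2, or without combination replicate 3, 5 genes fell rather than 9. COL16A1, COL1A2, COL21A1 and COL12A1 were not called without prexasertib replicate 2 (adjusted p = 0.098, 0.081, 0.083 and 0.08), nor without combination replicate 3 (0.055, 0.058, 0.068 and 0.079). COL1A2, COL21A1 and COL12A1 also lost the call without combination replicate 1 (0.053, 0.058 and 0.075), and COL12A1 without prexasertib replicate 1 (0.056). DESeq2 did not call COL1A2 (adjusted p = 0.26). The same-numbered libraries of these 2 groups deviated together, and with the replicate number as a block COL6A1 rose (adjusted p = 0.039, against 0.081 without it) and COL15A1 fell (0.046 against 0.053). COL6A1 had 1.65, 0.723 and 1.25 CPM with prexasertib and 2.22, 1.83 and 1.99 CPM with the combination (0.74 ± 0.31), and COL15A1 a mean of 2.29 against 1.28 CPM (-0.81 ± 0.30).

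**Figure D3:**
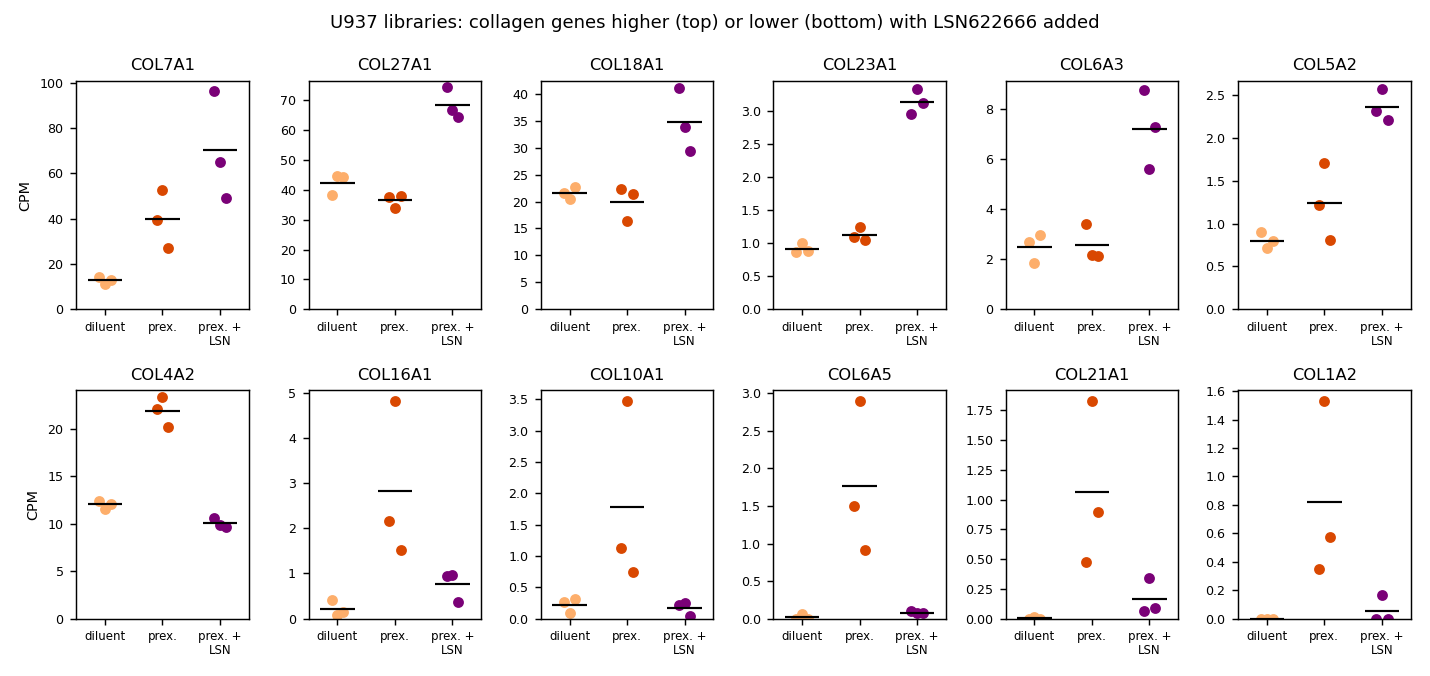
CPM of 12 collagen genes in the U937 libraries given diluent, prexasertib, or prexasertib with LSN622666 (prex. + LSN), 1 point per library with the group mean as a bar, each panel on its own linear axis from 0. The top row rises in the combination group (COL23A1 from a mean of 1.13 to 3.14 CPM), and in the bottom row the combination libraries lie below those of prexasertib alone (COL4A2 from 21.9 to 10.1 CPM).

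Set against diluent, the 2 compounds together raised 10 of the 36 tested collagen genes, beside 6.88% of all tested genes. No collagen gene fell by edgeR's test, beside 4.11% of all tested genes, while 1, COL4A2, was lower at an unadjusted p under 0.05 and 1, also COL4A2, fell by DESeq2. The median log2 change was 0.84, also with 2 genes at 0 set at their bound, against 0.00094 over all genes. COL7A1 had 14.1, 11.1 and 13.1 CPM in diluent and 96.5, 65.1 and 48.96 CPM with both compounds, a log2 change of 2.31 ± 0.25 (adjusted p = 7.3e-05). COL23A1 rose from 0.916 to 3.14 CPM (1.65 ± 0.14, adjusted p = 1.1e-05), COL11A2 from 2.48 to 7.27 CPM (1.41 ± 0.22, adjusted p = 0.0011) and COL20A1 from 0.0213 to 0.356 CPM (3.74 ± 0.84, adjusted p = 0.01). These 4 calls held without any single library.

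Smaller or less stable rises over diluent were those of COL27A1 from 42.4 to 68.5 CPM (0.55 ± 0.13, adjusted p = 0.011), COL18A1 from 21.6 to 34.8 CPM (0.54 ± 0.14, adjusted p = 0.021), COL6A3 from 2.5 to 7.22 CPM (1.39 ± 0.34, adjusted p = 0.017) and COL5A2 from 0.804 to 2.37 CPM (1.43 ± 0.34, adjusted p = 0.013). COL12A1, with no count in diluent and 20 with both compounds, was at least 5.64-fold higher (adjusted p = 0.028), and COL21A1 had 1 count against 35, a ratio of 29.6 (95% counting interval 4.98 to 1202, adjusted p = 0.04). COL4A2 was at 12.0 CPM in diluent and 10.1 CPM with both compounds (-0.39 ± 0.12, adjusted p = 0.0503). Without diluent replicate 2, diluent replicate 3 or combination replicate 1, the genes that rose numbered 5, 6 and 5. COL27A1 lost its call without diluent replicate 1 or combination replicate 1 (adjusted p = 0.052 and 0.061), COL6A3 without diluent replicate 2 or combination replicate 1 (0.087 and 0.081) and COL5A2 without diluent replicate 2 or 3 (0.063 and 0.055). COL18A1 lost it without any diluent replicate or combination replicate 1 (0.059 to 0.13), and COL12A1 and COL21A1 without any diluent replicate or combination replicate 1 or 2 (0.055 to 0.14).

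Chains that assemble together did not keep a constant ratio across groups. Type IV collagen of most basement membranes holds COL4A1 and COL4A2 chains, which the promoter shown above separates. Per kb of exon, COL4A2 stood at 1.21 ± 0.136 times COL4A1 (SD, n = 3) in ML1 diluent and 1.54 ± 0.158 times in ML1 prexasertib. The merged exon lengths were 12971 bases for COL4A2 and 7525 for COL4A1. In CPM, ML1 diluent had means of 67.6 for COL4A2 and 32.55 for COL4A1. The size of a ratio thus rests on the lengths. Its comparison between groups uses the same lengths throughout, and a different mix of transcripts between groups was not tested. In U937 the ratio was 7.93 ± 2.85 in diluent, 11.7 ± 2.89 with prexasertib and 5.78 ± 2.31 with the combination. Every U937 library was above every ML1 library, since the lowest U937 ratio was 3.28 and the highest ML1 ratio 1.68. Within U937, the prexasertib and diluent ratios overlapped (9.11 to 14.8 against 4.81 to 10.4). COL4A2 shares 0.7% of its exon bases with COL4A2-AS1, an antisense gene that rose in U937 with prexasertib from 0.0358 to 0.334 CPM (log2 2.93 ± 0.78, adjusted p = 0.01). The kidney chain pair COL4A3 and COL4A4 stayed at or below 0.451 CPM as group means, and COL4A5 and COL4A6 at or below 0.0641 CPM.

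Type IX collagen is a trimer of COL9A1, COL9A2 and COL9A3 chains. COL9A1 had 3 counts in all, in U937 prexasertib replicate 2, and none in the other libraries, where 3 counts, the limit that a count of 0 allows, would be 0.0344 to 0.0612 CPM. Per kb, COL9A3 stood at 1.12 ± 0.113 times COL9A2 in ML1 diluent and 0.0879 ± 0.0229 times in ML1 prexasertib, so the ML1 groups did not overlap. The U937 ratios were 0.211 ± 0.0838 in diluent, 0.124 ± 0.0106 with prexasertib and 0.125 ± 0.0334 with the combination. COL9A2 was thus the dominant chain in every group except ML1 diluent.

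Type VI collagen needs COL6A1, COL6A2 and an α3-like chain. COL6A2 per kb was at 0.0581 in ML1 prexasertib and 0.0573 in U937 prexasertib and at most 0.00251 in the other groups, while COL6A1 ran from 0.186 to 0.672. COL6A3 stood at 0.0591 ± 0.0459 times COL6A1 in ML1 diluent and 0.0602 ± 0.0205 times in ML1 prexasertib. In U937 it stood at 0.718 ± 0.144 in diluent, 0.879 ± 0.262 with prexasertib and 1.39 ± 0.174 with the combination, where each library was above all others. Type I collagen pairs COL1A1 with COL1A2, and COL1A2 was near COL1A1 in U937 prexasertib alone, at 1.07 ± 0.711 times per kb, with libraries from 0.253 to 1.56. In the other groups COL1A2 was at 0 or at a mean of at most 0.0764 times COL1A1.

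**Figure D4:**
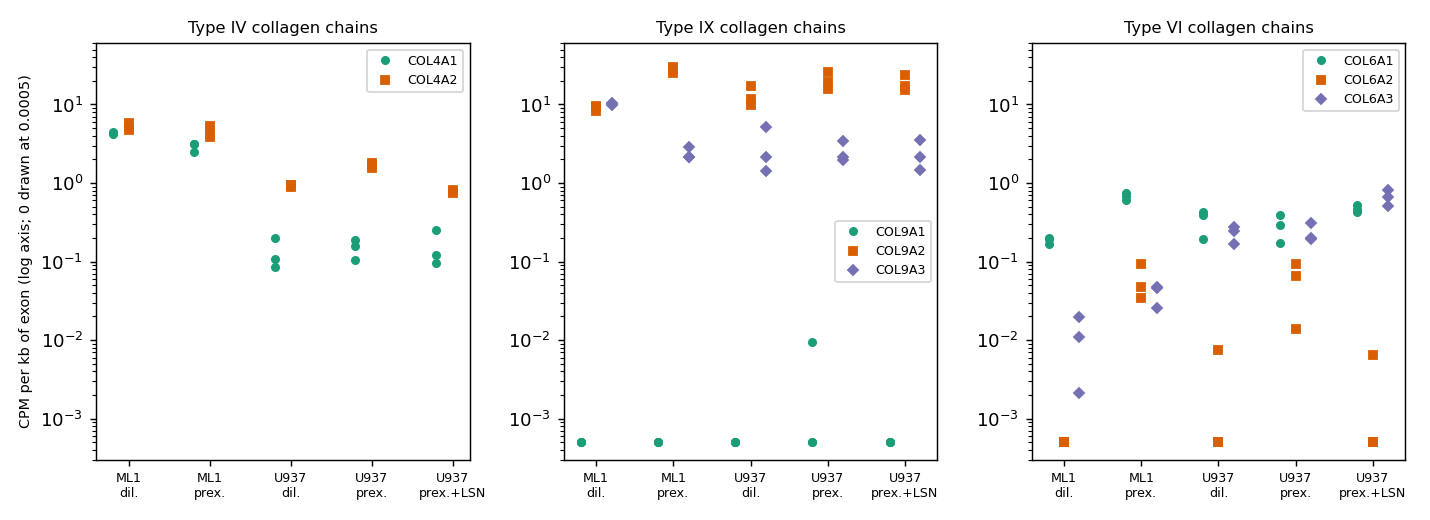
CPM per kb of exon (log axis, 0 drawn at the bottom) of chains that assemble into type IV, IX and VI collagen, 1 point per library in each of the 5 groups. COL4A1 and COL4A2 lie closer together in ML1 than in U937, COL9A3 drops below COL9A2 in ML1 prexasertib, and COL9A1 has a count in 1 library.

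The rest of the family was scarce. COL21A1, at a highest group mean of 1.065 CPM, lay just inside the 1 CPM limit, and COL24A1 at 0.9707 and COL14A1 at 0.9593 CPM just outside it. Of the 25 genes below the limit, 17 were tested and 8 were not, these being COL11A1, COL3A1, COL8A1, COL25A1, COL19A1, COL9A1, COL4A6 and COL4A5, with highest group means from 0.0164 to 0.2001 CPM. COL3A1, the partner of type I collagen in skin and vessels, had no count in ML1 or in U937 diluent, 24 in U937 prexasertib and 4 in the combination. The 5 tested genes that passed no comparison were COL2A1, the main cartilage fibril collagen, COL4A3, COL6A6, COL8A2 and COL17A1, with highest group means from 0.243 to 0.451 CPM. Over the whole family, 39 of the 44 genes had their highest group mean in a treated group: 15 in U937 prexasertib, 15 in the combination and 9 in ML1 prexasertib. That is 88.6% of the family, against 72.4% of all genes with a count and 85.7% of those below 1 CPM in every group. The other 5, COL4A1, COL4A2, COL4A4, COL9A3 and COL15A1, were highest in ML1 diluent.

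Genes that make, cut, bind or anchor collagen were read from 6 related lists. In the list of intracellular enzymes and chaperones, which hydroxylate, glycosylate, fold and export procollagen, 20 of 24 genes were tested. In U937, 9 of them fell with prexasertib (COLGALT1, CRTAP, P3H1, P3H4, P4HB, PLOD1, PLOD3, PPIB and SERPINH1), with a list median of -0.39. Over all tested genes 12.8% fell in that comparison. COLGALT1, which adds galactose to hydroxylysine, fell from 564 ± 41.9 to 390.3 ± 38.8 CPM (SD, n = 3; log2 -0.67 ± 0.14, adjusted p = 0.0027). P3H1, a prolyl 3-hydroxylase, fell from 138 ± 1.25 to 112 ± 10.1 CPM (-0.45 ± 0.12, adjusted p = 0.0086). CRTAP, its partner in the same complex, fell from 311 ± 21.2 to 206 ± 51.3 CPM (-0.73 ± 0.16, adjusted p = 0.0035). The collagen chaperone SERPINH1 (HSP47) had 3.35 ± 1.02 CPM in U937 diluent and 2.13 ± 0.35 CPM with prexasertib (-0.79 ± 0.21, adjusted p = 0.0087), against 49.95 ± 4.60 CPM in ML1 diluent.

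In ML1, 5 genes of that list rose with prexasertib (CREB3L1, MIA3, P4HB, PLOD1 and PPIB) and 6 fell (COLGALT1, COLGALT2, CRTAP, P3H4, TMEM38B and TRAM2), beside 25.3% higher and 23.5% lower over all tested genes. COLGALT1 fell from 246 ± 17.7 to 87.5 ± 14.1 CPM (-1.45 ± 0.15, adjusted p = 3.1e-07), and MIA3 (TANGO1), which loads procollagen into transport carriers, rose from 94.6 ± 6.55 to 172 ± 33.3 CPM (0.90 ± 0.14, adjusted p = 2.6e-05). The number that rose was 3 without ML1 diluent replicate 3 and 2 without ML1 prexasertib replicate 2. With LSN622666 added in U937, 8 genes of the list rose and 2 fell against prexasertib alone, beside 11.9% and 17.1% over all tested genes. P3H1 went to 174 ± 16.1 CPM (0.64 ± 0.12, adjusted p = 0.00073) and SERPINH1 to 3.75 ± 0.502 CPM (0.83 ± 0.20, adjusted p = 0.0061). The 8 became 2 without prexasertib replicate 2, 2 without combination replicate 1 and 3 without combination replicate 3, and the 2 that fell, CREB3L1 and MIA3, were 0 or 1 without any 1 of prexasertib replicate 2 and the combination replicates.

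**Figure D5:**
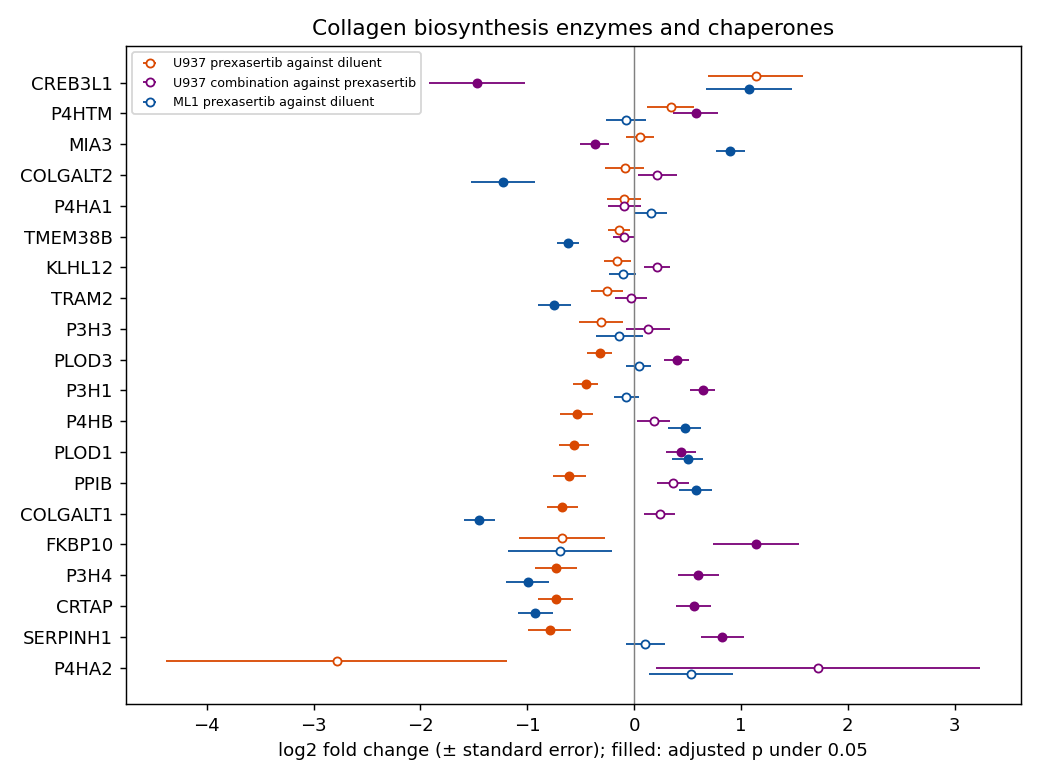
Log2 fold change (± SE) of the 20 tested collagen biosynthesis enzymes and chaperones for prexasertib in U937 (orange), prexasertib in ML1 (blue) and LSN622666 added to prexasertib in U937 (purple), with filled points at an adjusted p under 0.05. The 9 filled orange points all lie left of 0, and the blue ones lie on both sides.

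The list of collagenases, gelatinases and their inhibitors had 15 tested genes, of which 8 rose and 2 fell with prexasertib in U937, 7 rose in ML1, and 1 rose and 7 fell when LSN622666 was added. The shares over all tested genes, which apply to each list below as well, were 18.3% higher and 12.8% lower for prexasertib in U937, 25.3% and 23.5% for prexasertib in ML1, and 11.9% and 17.1% for LSN622666 added. MMP9, a gelatinase that cleaves type IV and denatured collagen, rose from 0.525 ± 0.141 to 49.5 ± 19.0 CPM in ML1 (log2 6.57 ± 0.42, adjusted p = 1.2e-09) and from 1.08 ± 0.175 to 5.06 ± 2.64 CPM in U937 (2.08 ± 0.36, adjusted p = 0.00058), and had 1.30 ± 0.16 CPM with the combination (-1.96 ± 0.35 against prexasertib, adjusted p = 0.00069). FAP, a fibroblast-associated protease, rose in U937 from 3.05 ± 0.125 to 10.4 ± 4.09 CPM (1.61 ± 0.29, adjusted p = 0.00079). MMP14, a membrane collagenase, rose from 26.4 ± 1.12 to 65.3 ± 12.3 CPM in ML1 (1.34 ± 0.24, adjusted p = 0.00015) and from 3.50 ± 0.34 to 8.36 ± 3.72 CPM when LSN622666 was added (1.24 ± 0.25, adjusted p = 0.0016). Without U937 prexasertib replicate 2, 4 genes of this list rose in U937 and none fell, and the 2 that fell, TIMP1 and TIMP2, were not called without diluent replicate 1 or 2 either. Of 12 tested procollagen proteinases and crosslinking enzymes, 1 rose and 1 fell in U937 with prexasertib, 5 rose and 2 fell in ML1, and 2 rose and 1 fell with LSN622666 added. Several of these counts were near or below the shares over all tested genes. In U937 FURIN was not called higher without prexasertib replicate 1 or 2, nor BMP1 lower without prexasertib replicate 2, and 1 rose with LSN622666 added without prexasertib replicate 2. In ML1 the number that rose was 3 without diluent replicate 1, diluent replicate 2 or prexasertib replicate 2, and only 1 was lower when diluent replicate 1 or prexasertib replicate 1 was left out. ADAMTS14, which removes the N-propeptide of fibrillar procollagens, went from 0.0211 ± 0.0231 to 6.99 ± 0.509 CPM in ML1 (8.08 ± 0.38, adjusted p = 3.2e-11) and had 7.21 ± 0.97 CPM in U937 diluent.

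Among 16 tested laminins and other matrix partners, 6 rose and 1 fell in U937 with prexasertib, 5 rose in ML1, and 3 rose and 4 fell with LSN622666 added. LAMB3, which with LAMA3 forms the laminin that COL7A1 fibrils anchor, rose in U937 from 3.39 ± 0.566 to 18.0 ± 9.99 CPM (2.25 ± 0.30, adjusted p = 5.3e-05) and LAMA3 from 0.113 ± 0.0629 to 1.35 ± 0.46 CPM (3.47 ± 0.41, adjusted p = 1.8e-05). Both were lower with LSN622666 added (adjusted p = 0.0048 and 0.003). Without U937 prexasertib replicate 2, 2 genes of this list fell with LSN622666 added; without prexasertib replicate 1, 3 fell in U937; and without ML1 diluent replicate 2 or prexasertib replicate 1, 3 rose in ML1. AGRN, a basement membrane proteoglycan, rose in ML1 from 9.27 ± 0.796 to 173 ± 40.1 CPM (4.25 ± 0.18, adjusted p = 1.2e-11). Of 14 tested collagen receptors, 3 rose and 3 fell in U937 with prexasertib and 7 rose and 1 fell in ML1, and 1 rose and 1 fell with LSN622666 added. DDR1, a receptor tyrosine kinase for collagen, rose from 0.00939 to 0.419 CPM in U937 and from 0.00764 to 0.331 CPM in ML1 (adjusted p = 0.0018 and 0.00054). Without U937 prexasertib replicate 2, only 1 receptor gene rose in U937 and 1 fell. With LSN622666 added, the numbers that rose and fell were both 0 without prexasertib replicate 2 or combination replicate 1, and 0 fell without combination replicate 3. The single fall in ML1, ITGB1, was not called without prexasertib replicate 3 (adjusted p = 0.074). ITGB1, the shared β chain of collagen-binding integrins, fell from 237 ± 12.5 to 182 ± 21.3 CPM in U937 (-0.52 ± 0.11, adjusted p = 0.0026).

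The list of TGF-beta pathway genes and transcription factors known to act on collagen genes had 15 tested genes of the 16 found by symbol. In U937, 5 rose with prexasertib, and in ML1 8 rose and 2 fell, of which 1 fell without ML1 diluent replicate 3. The pathway inhibitor gene SMAD7 rose from 12.1 ± 2.46 to 39.8 ± 8.83 CPM in U937 (1.57 ± 0.31, adjusted p = 0.0017) and from 4.07 ± 2.52 to 33.9 ± 12.1 CPM in ML1 (3.10 ± 0.33, adjusted p = 7.8e-07). With LSN622666 added, 7 of the list fell, SMAD7 (-1.43 ± 0.31, adjusted p = 0.0028) among them, while SCX, a tendon factor that acts on type I collagen genes, rose from 3.81 ± 1.06 to 8.59 ± 2.98 CPM (1.17 ± 0.24, adjusted p = 0.0017). Without U937 prexasertib replicate 2, 3 genes of this list rose in U937 and 4 fell with LSN622666 added, and 3 fell without combination replicate 3.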

How the data were processed

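RNA was sequenced from TruSeq RNA Library Prep v2 libraries, a kit that does not mark strand. The authors deposited whole-number counts of reads per gene symbol, made with TopHat2 2.0.14, Bowtie2 2.2.6 and featureCounts 1.4.6 on hg38, per the submitters' processing notes. The annotation, strand setting and mate handling were not given in the sources used here.

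Groups came from the sample titles. The counts were fitted with edgeR 4.0.16 (R 4.3.3, limma 3.58.1; TMM factors, the default low-count filter, 1 mean per group over the 15 libraries, robust quasi-likelihood test), and p-values were adjusted by Benjamini-Hochberg over 17243 genes in each of 6 comparisons. The script was tested on simulated counts. CPM are counts scaled to library totals, with no TMM factor. Exon lengths, coordinates and overlaps came from GENCODE release 29 (44 of 44 genes matched). An exon length is that of all exons of a gene in the basic annotation, merged, and not that of 1 transcript. The collagen rule and the 6 related lists (113 genes) were chosen with earlier results of these data known. Every collagen gene at 1 CPM or called was named, and in each related list up to 2 called genes with the smallest p in each of the first 4 comparisons could be. Alternatives were DESeq2 1.42.0, other scaling factors, other low-count filters, a fit to the groups compared, a replicate block and leaving out each library. Same-numbered U937 libraries given prexasertib with and without LSN622666 deviated together (correlations of their deviations from the group means 0.409, 0.37 and 0.384), so the numbers pair those groups. Single-gene precision is limited by 3 libraries a group. Counting intervals cover counting error only, and floors of 3 counts cover only that of the group with no count.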

Additional observations from a re-analysis of the deposited data

Results flagged for a closer look

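The change with prexasertib differed between the cell lines for 10 of 36 tested collagen genes by the test of the difference itself, the U937 change minus the ML1 change on the log2 scale. Over all tested genes, 12.4% had a higher and 12.3% a lower difference, so the collagen share is near that of all genes. It was lower in U937 for COL27A1 (-1.75), COL9A2 (-1.11), COL6A1 (-2.26), COL6A3 (-2.14) and COL5A3 (-6.96), and higher in U937 for COL4A2 (0.89), COL9A3 (1.71), COL4A4 (2.47), COL24A1 (5.77) and COL12A1 (7.44). The values of COL24A1 and COL12A1 rest on U937 diluent libraries with no count, and that of COL5A3 on 2 counts in ML1 diluent, so the sizes of these 3 depend on the fit and are not bounds. COL9A2 rose in both lines, and COL27A1 rose in ML1 and fell in U937. The U937 calls of COL9A2 and COL27A1 were lost under 7 and 8 of 13 alternatives.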

How the results depend on the processing

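Of 86 calls of collagen genes, 61 held under every alternative run that tested the gene, 25 were lost under at least 1, and none changed direction. Runs whose filter left a gene out were not counted for that gene. Of 100 results without a call, 15 gained one. DESeq2 lost 1 of the 86. For the genes of the 6 related lists that could be named, 31 of 111 calls were lost under at least 1 alternative. Leaving out a single library lost 30 of the 111, and 0 changed direction. The stricter filter of 5 CPM in 3 libraries left 11 collagen genes to test, of which 5 rose and 0 fell with prexasertib in U937, 7 rose in ML1, 1 fell when LSN622666 was added, 6 rose with both compounds against diluent, 2 had a higher difference between lines, and 4 were higher and 4 lower in U937 diluent than in ML1 diluent. The single collagen gene lower with prexasertib in U937 became 0 under upper-quartile factors, with no low-count filter and in the fit to the groups compared. With both compounds against diluent, 1 gene (COL4A2) fell under DESeq2 size factors, the replicate block or DESeq2. In the fit to the groups compared, 10 of 31 tested collagen genes rose with prexasertib in U937, and in ML1 11 of 25 rose and 3 fell. With LSN622666 added 5 rose and 7 fell of 33, and with both compounds against diluent 8 of 28 rose. The difference between lines was higher for 5 and lower for 5 of 36, and between lines 10 were higher and 7 lower of 24. With the replicate number as a block, the numbers that rose and fell were 16 and 1 (prexasertib in U937), 14 and 2 (prexasertib in ML1), 7 and 10 (LSN622666 added), 11 and 1 (both compounds against diluent), 6 and 5 (difference between lines) and 13 and 8 (between lines). The block lost no call and gained 8. Only in the comparison with LSN622666 added did all 3 same-numbered pairs have a correlation of their deviations above 0.1. Leaving out 1 library gave 11 to 15 higher and 0 to 1 lower for prexasertib in U937, 12 to 14 and 2 to 2 in ML1, 4 to 6 and 5 to 10 with LSN622666 added, 5 to 11 and 0 to 0 against diluent, 3 to 6 and 4 to 7 for the difference, and 10 to 12 and 7 to 9 between lines. The collagen genes at the CPM limit numbered 19 at 1 CPM, 27 at 0.5 CPM, 15 at 2 CPM, 20 with TMM scaling and 17 to 20 without 1 library. The cause of these moves was not tested. Fewer collagen genes were tested under the stricter filter and, but for the difference between lines, in the fits to the groups compared. Depth sets the floor, since 1 count was worth 0.0115 to 0.0204 CPM.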
